A study of Mus musculus with 12 samples.

Results

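The Bcl2 family of apoptosis regulators was followed in primary mouse hepatocytes through 10 genes chosen by symbol: Mcl1, Bcl2l1, Bcl2l2, Bax, Bak1, Bcl2l11, Bid, Bad, Bbc3 and Pmaip1. Each symbol named a single row of a table of 48440 genes, and all 10 passed the filter on low counts. Hepatocytes were taken from Mettl3 cKO mice (Mettl3 flox/flox/Alb-Cre) and from Control littermates, which the sample labels call WT, all on the C57BL/6J background. After collagenase perfusion the cells were kept 16 h in culture before actinomycin D, which blocks transcription, was added at 5 µM for 0, 2 or 6 h. The 12 libraries of poly(A) RNA formed 6 groups of 2: Mettl3 cKO at 0, 2 and 6 h and Control at 0, 2 and 6 h, so every 2 h and 6 h library of both genotypes carries the drug. In the Mettl3 cKO mice, loxP sites enclose exons 2 to 4 of Mettl3, which encodes the enzyme that writes m6A on mRNA, and a heterozygous Cre driven by the albumin enhancer and promoter is meant to delete them in hepatocytes. The age and sex of these mice, and whether the 2 replicates came from separate mice or cultures, are not given in the sources used here, so p-values measure only the spread between libraries, which may be technical.

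The Bcl2 family decides whether the outer mitochondrial membrane is permeabilised, the step that releases cytochrome c and starts the caspase cascade. Bax and Bak1 form the pores, Mcl1, Bcl-xL (the product of Bcl2l1) and Bcl-w (the product of Bcl2l2) hold them in check, and the BH3-only proteins Bim (Bcl2l11), Bid, Bad, Puma (Bbc3) and Noxa (Pmaip1) antagonise the inhibitors or activate the effectors. In the liver, hepatocytes depend on both Mcl1 and Bcl-xL for survival, and Bid links the death receptors to mitochondria. The Mcl1 mRNA and protein are both known for rapid turnover.

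Libraries held between 16952084 and 20914516 reads assigned to genes, with a median of 18877363. Mettl3 had 22.6 and 23.2 CPM (reads per 1000000 reads of the library) in Mettl3 cKO against 33.4 and 28.5 CPM in Control at 0 h, a log2 difference of -0.47 (SE 0.10, edgeR adjusted p = 0.000330). At 2 h the genotypes overlapped, and at 6 h the difference was 0.31 (edgeR adjusted p = 0.0154). The counts cover the whole gene, exons outside the deletion included, so they check the labels only in part. Both Control 6 h libraries stood apart from the other 10: they held 20246 and 16565 reads of Xist (at most 6 elsewhere) and 0 and 1 reads of the Y-linked Ddx3y (2440 to 3210 elsewhere), the pattern of female cells. A difference of Control at 6 h therefore cannot be told apart from the source of those cells, and the 0 and 2 h libraries lead below. The 8 hepatocyte markers summed to 45700 to 101000 CPM, of which Alb made up 40400 to 95200, and 2 were called higher and 5 lower in Mettl3 cKO at 0 h (median log2 difference -0.5), 1 and 5 at 2 h (-0.39) and 2 and 6 at 6 h (-1.1). Of 8 stellate cell or fibroblast markers, 4 were called higher at 0 h, 3 at 2 h and 6 at 6 h. Of all genes tested, 29.6% were called higher and 25.5% lower at 0 h. At 2 h these shares were 32.3% and 28.6%, and at 6 h 35.4% and 33.1%. Cd3e and Cd3g were at 0 in all 12. The 8 Kupffer cell or macrophage markers summed to 428 and 387 CPM in Mettl3 cKO against 178 and 181 CPM in Control at 0 h, 460 and 441 against 216 and 237 at 2 h, and 284 and 262 against 90.2 and 111 at 6 h. All 8 were called higher at 0 h and at 6 h and 7 at 2 h, with Vsig4 at 0 in 1 library. The 5 bile duct markers summed to 72.4 and 65.3 CPM in Mettl3 cKO against 184 and 195 CPM in Control at 0 h. Of these, 3 were called lower and 0 higher at 0 h (1 higher at an unadjusted edgeR p under 0.05). At 2 h 4 were lower and 0 higher, and at 6 h 3 lower and 1 higher. Of 7 endothelial markers, 3 were called higher and 0 lower at 0 h, 1 and 1 at 2 h, and 4 and 0 at 6 h. In bulk libraries, fewer cells of a type and less RNA per cell cannot be told apart, and the part of these cell types in the differences below was not tested.

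Positions of the members in mm10 (GRCm38) and their transcripts come from GENCODE M21, which matched 99.2% of the identifiers. The table lists Mcl1 as ENSMUSG00000038612.16, Bcl2l1 as ENSMUSG00000007659.18, Bcl2l2 as ENSMUSG00000089682.9, Bax as ENSMUSG00000003873.11, Bak1 as ENSMUSG00000057789.13, Bcl2l11 as ENSMUSG00000027381.16, Bid as ENSMUSG00000004446.12, Bad as ENSMUSG00000024959.13, Bbc3 as ENSMUSG00000002083.13 and Pmaip1 as ENSMUSG00000024521.7. GGAC, the core of the sequence at which m6A is most often placed, was searched on the mRNA strand of 21894 principal transcripts, of which 98.2% held it, with a median of 3.97 copies per kb. Mcl1 held 15 copies (4.389 per kb) and Bcl2l1 10 (3.894 per kb), both near that median, whereas Bax held 8 in a short mRNA (9.227 per kb) and Bbc3 15 (8.269 per kb), densities reached by 1.8% and 3.4% of transcripts. The pentamer ATTTA, the core of AU-rich elements, was counted with overlaps in 19371 3′UTRs of at least 100 bases, of which 66.6% held it. Mcl1 had 8 copies and Bcl2l11 had 6, a number reached by 16.4% of 3′UTRs, Bcl2l2 and Pmaip1 had 4 each, Bcl2l1 had 1, and Bax, Bak1, Bid, Bad and Bbc3 had 0. A match is only a string in these windows and shows neither a methylated base nor a bound protein. The GGAC nearest the stop codon is shown for the pair of genes whose decay differed between genotypes (Mcl1, Bcl2l1). It is also shown for the fastest decaying member (Bbc3), another that fell fast in both genotypes (Bcl2l11) and one that kept its library share (Bax). The 3′UTR window with most ATTTA copies is shown for the 3 of them that have one. All are written 5′ to 3′ with the searched motif in capitals.
Mcl1 GGAC: gagtgcaataggGGACtcttaaagctcca
Mcl1 ATTTA: acatgtgtATTTAtgaaggtggacttgaa
Bcl2l1 GGAC: gaacggcggctgGGACacttttgtggatc
Bcl2l1 ATTTA: gtgtctgtATTTAtgtgtgaggagctgct
Bbc3 GGAC: cacccgcccgggGGACgtcggagacttgg
Bcl2l11 GGAC: aggatacgtggcGGACatggctcttgttc
Bcl2l11 ATTTA: tgttgtatATTTAttttccgcttATTTAa
Bax GGAC: tcccactgccttGGACtgtgtcttttctt
The Mcl1 windows lie in the 3′UTR at chr3:95660830-95660858 and chr3:95660886-95660914 on the plus strand, with the motifs starting 21 and 73 bases after the first base of the stop codon. The Bcl2l1 GGAC lies in the coding sequence and its window spans an exon junction, and the Bcl2l1 ATTTA window is in the 3′UTR at chr2:152780888-152780916 on the minus strand. The Bbc3 window is in the 3′UTR at chr7:16317242-16317270 (plus strand, 22 bases after the first base of the stop codon), and the Bax window is in the 3′UTR at chr7:45461829-45461857 (minus strand, 19 bases after it). Both Bcl2l11 windows are in the 3′UTR, at chr2:128158348-128158376 and chr2:128161347-128161375 on the plus strand.

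Per kb of exon, Mcl1 was the most abundant member before the drug, with 174 ± 15.4 CPM per kb in Mettl3 cKO and 150 ± 4.11 in Control (SD, n = 2 each). In Mettl3 cKO at 0 h it was followed by Bax at 47.1 ± 2.28 and Bcl2l1 at 35.2 ± 0.189 CPM per kb, and in Control by Bcl2l1 at 52.8 ± 2.79 and Bax at 37.7 ± 0.836 CPM per kb (SD, n = 2). Bid, Bak1, Bbc3 and Bcl2l2 lay between 13.5 and 18.6 CPM per kb in Mettl3 cKO and between 12.7 and 17.5 in Control, with neighbours in that order often within their spread. Bad, Bcl2l11 and Pmaip1 were the least abundant in both genotypes, at 5.14, 5.01 and 2.79 CPM per kb in Mettl3 cKO and 6.39, 2.93 and 1.94 CPM per kb in Control. At 6 h, Mcl1 still led in Mettl3 cKO with 130 ± 5.01 CPM per kb, while in Control Bax led with 39.6 ± 2.44 and Mcl1 followed with 22.9 ± 2.71 CPM per kb (SD, n = 2).

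**Figure D1:**
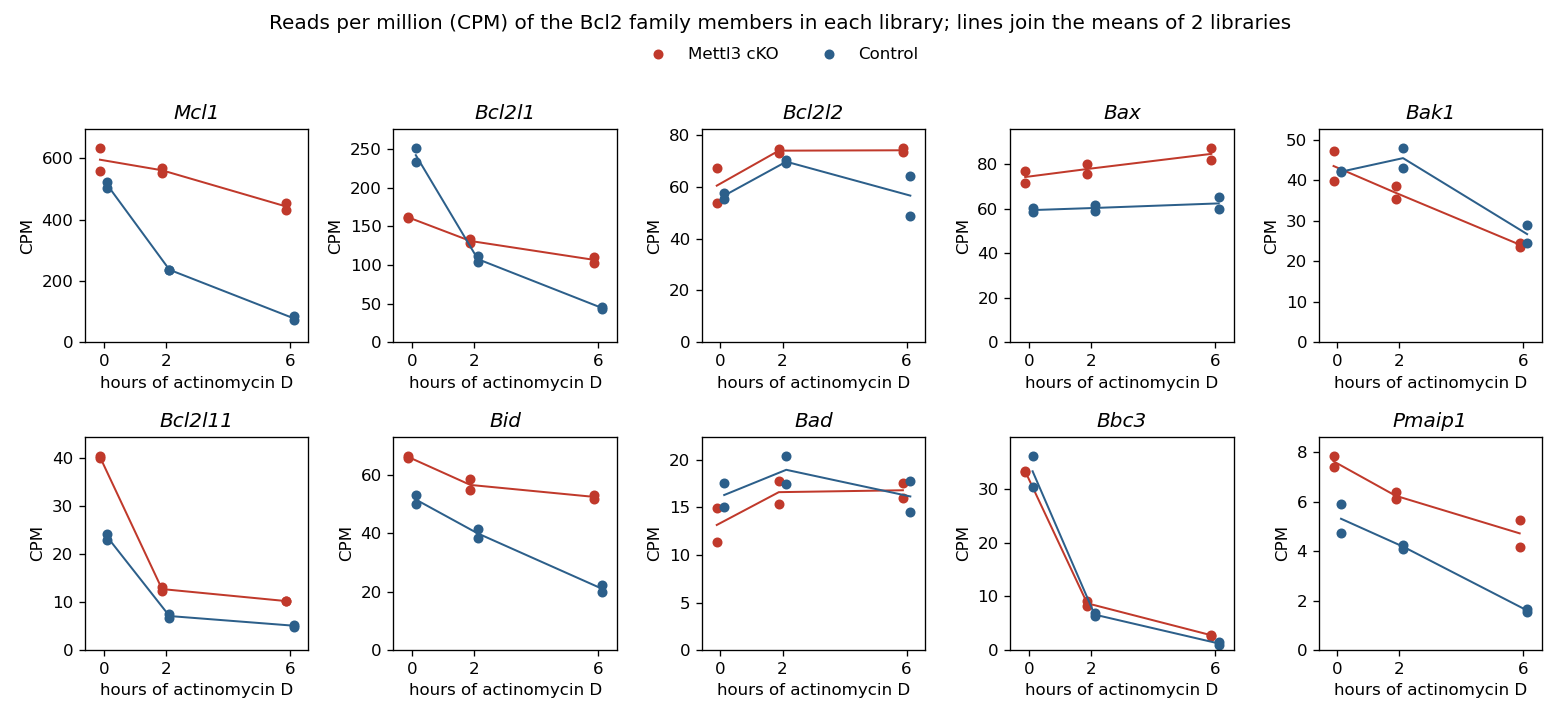
CPM (y axis, each panel with its own scale from 0) against hours of actinomycin D (x axis) for the 10 members, with a point per library and lines through the means of 2 libraries, Mettl3 cKO in red and Control in blue, set slightly apart on the time axis. Mcl1 and Bcl2l1 fell much less in Mettl3 cKO than in Control, Bbc3 and Bcl2l11 fell steeply in both, and Bax did not fall in either as a share of the library (scaled to ribosomal protein genes, it had -0.23 and -0.21 on the log2 scale at 2 h).

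Among the anti-apoptotic members, the Mcl1 mRNA (chromosome 3, 95658788 to 95663176, plus strand) kept nearly its whole share of the library over the first 2 h in Mettl3 cKO and fell steeply in Control. In Mettl3 cKO, Mcl1 had 558 and 633 CPM at 0 h, 570 and 552 at 2 h, and 431 and 455 at 6 h. In Control it had 503 and 522 CPM at 0 h, 237 and 236 at 2 h, and 84.9 and 71.8 at 6 h. The genotypes did not overlap at any time, with little between them at 0 h and far more once transcription was blocked. At 2 h, 94.2% of the 0 h mean was left in Mettl3 cKO, against 46.2% in Control. The slope was -0.04 log2 per hour in Mettl3 cKO (edgeR adjusted p = 0.203) and -0.56 in Control, an apparent half-life of 1.79 h in Control (95% interval 1.63 to 2 h). The slopes differed by 0.51 log2 per hour (SE 0.038, 95% interval 0.44 to 0.59, edgeR adjusted p = 3.18e-10), and 6.56% of the 14277 genes tested had a higher value. Over all 12 libraries 74.4% was left at 6 h in Mettl3 cKO against 15.3% in Control, and the slopes differed by 0.37 log2 per hour (edgeR adjusted p = 3.79e-07). Leaving out each library in turn gave 0.47 to 0.56 for the 0 to 2 h difference, past the threshold each time. Within Mettl3 cKO, where no library held the Xist reads seen in Control at 6 h, Mcl1 fell between 2 and 6 h. The log2 change was -0.34 (edgeR adjusted p = 0.000176), or -0.18 with TMM (edgeR adjusted p = 0.0189) and -0.58 scaled to ribosomal protein genes.

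Bcl2l1 (chromosome 2, 152780668 to 152831728, minus strand), which encodes Bcl-xL and, by alternative splicing, a shorter pro-apoptotic form that gene counts do not separate, started lower in Mettl3 cKO and ended higher. Bcl2l1 had 162 and 161 CPM at 0 h, 129 and 133 at 2 h and 110 and 103 at 6 h in Mettl3 cKO. In Control there were 251 and 233 CPM at 0 h, 111 and 104 at 2 h and 46 and 42.8 at 6 h. The order of the genotypes thus turned round between 0 and 2 h, with no overlap at any time. At 2 h 81.2% of the 0 h mean was left in Mettl3 cKO against 44.6% in Control, and at 6 h 66% against 18.3%. The apparent half-life over 0 to 2 h was 6.65 h in Mettl3 cKO (95% interval 4.8 to 10.8 h) and 1.72 h in Control (1.56 to 1.91 h). The value in Mettl3 cKO depends on the scaling. Its log2 change over 0 to 2 h was -0.30 with total counts, -0.17 with DESeq2 size factors and -0.60 scaled to ribosomal protein genes. The slopes differed by 0.43 log2 per hour (SE 0.04, 95% interval 0.35 to 0.51, edgeR adjusted p = 1.22e-08), with 9% of genes higher, and over 12 libraries by 0.30 (edgeR adjusted p = 1.05e-05). Without any single library the 0 to 2 h difference stayed between 0.40 and 0.46.

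Bcl2l2 (chromosome 14, 54883377 to 54888234, plus strand) did not fall as a share of the library over the first 2 h in either genotype. It had 53.6 and 67.3 CPM at 0 h, 74.7 and 73.2 at 2 h and 73.3 and 74.9 at 6 h in Mettl3 cKO, and 55.4 and 57.8, then 69.1 and 70.3, then 64.3 and 48.9 CPM in Control. Its share of the library at 2 h was 122% of the 0 h mean in Mettl3 cKO and 123% in Control, and the slopes differed by -0.0044 log2 per hour (95% interval -0.12 to 0.11, edgeR adjusted p = 0.978). Of its exon length, 13.3% is shared with Gm20521 on the same strand, so some reads could belong to either.

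Of the pore-forming effectors, Bax kept its share of the library and Bak1 lost part of it by 6 h. Bax (chromosome 7, 45461697 to 45466898, minus strand) had 71.7 and 76.8 CPM at 0 h, 75.5 and 80.2 at 2 h and 82.1 and 87.2 at 6 h in Mettl3 cKO. In Control, Bax had 60.3 and 58.5, then 59.2 and 61.5, then 65.1 and 59.7 CPM. Every Mettl3 cKO library was above every Control library. As a share of the library, 105% of the 0 h mean was present at 2 h in Mettl3 cKO and 102% in Control. Scaled to ribosomal protein genes, the log2 change over 0 to 2 h was -0.23 in Mettl3 cKO (edgeR adjusted p = 0.0319) and -0.21 in Control (0.0624). Its slopes were apart by 0.02 log2 per hour (95% interval -0.07 to 0.12, edgeR adjusted p = 0.837). Bax shares 12.2% of its exon length with Gm45808 on the same strand.

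Bak1 (chromosome 17, 27019810 to 27029009, minus strand) had 47.2 and 39.8 CPM at 0 h, 35.3 and 38.5 at 2 h and 24.6 and 23.6 at 6 h in Mettl3 cKO. In Control it had 42.2 and 42 CPM at 0 h, 47.9 and 43 at 2 h and 24.4 and 29 at 6 h. The genotypes overlapped at 0 h and 6 h and were apart at 2 h, where Mettl3 cKO was lower. Bak1 was the member whose 0 to 2 h slope in Mettl3 cKO lay furthest below Control, by -0.18 log2 per hour (SE 0.061), which missed the threshold (edgeR adjusted p = 0.0543). It passed with TMM library sizes (-0.23, edgeR adjusted p = 0.00794), and with either Mettl3 cKO 0 h replicate 2 left out (-0.23, edgeR adjusted p = 0.00676) or Control 2 h replicate 2 left out (-0.21, edgeR adjusted p = 0.0425). Ggnbp1, on the opposite strand, covers 18.2% of the Bak1 exons, and the library kit does not mark strand.

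Among the BH3-only members, Bbc3 and Bcl2l11 fell fastest over the first 2 h, in both genotypes. Bbc3 (chromosome 7, 16308393 to 16318205, plus strand), a p53 target that encodes Puma, had 33.3 and 33.4 CPM at 0 h, 9.15 and 8.3 at 2 h and 2.9 and 2.63 at 6 h in Mettl3 cKO. In Control, Bbc3 had 36.2 and 30.5, then 6.28 and 6.95, then 0.913 and 1.55 CPM, the last from 19 and 31 reads. By CPM the genotypes overlapped at 0 h and were apart later, with Mettl3 cKO higher. Such a gap held for 49.3% of all genes at 2 h and 54.8% at 6 h. With TMM the log2 difference of Bbc3 at 2 h was 0.28, with no call (edgeR adjusted p = 0.112). At 2 h 26.2% of the 0 h mean was left in Mettl3 cKO and 19.8% in Control, and at 6 h 8.3% and 3.7%. Its apparent half-life over 0 to 2 h was 1.03 h in Mettl3 cKO (95% interval 0.924 to 1.18 h) and 0.857 h in Control (0.775 to 0.958 h). The difference in slope, 0.20 log2 per hour (SE 0.085), did not pass the test (edgeR adjusted p = 0.130), and without Control 0 h replicate 2 it was 0.26 (edgeR adjusted p = 0.0499).

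Bcl2l11 (chromosome 2, 128126038 to 128162547, plus strand), which encodes Bim, a BH3-only protein under the control of Foxo factors, differed in level but not detectably in decay. It had 40 and 40.4 CPM at 0 h, 13.1 and 12.3 at 2 h and 10.2 and 10.2 at 6 h in Mettl3 cKO, against 22.9 and 24.1, 7.55 and 6.62, and 5.28 and 4.87 CPM in Control. Mettl3 cKO was higher at each time by a like factor, 1.71 at 0 h, 1.79 at 2 h and 2.01 at 6 h. At 2 h 31.6% was left in Mettl3 cKO and 30.1% in Control. Apparent half-lives over 0 to 2 h were 1.2 h (95% interval 1.07 to 1.37 h) and 1.16 h (1.02 to 1.34 h). The slopes over 0 to 2 h differed by 0.03 log2 per hour (95% interval -0.12 to 0.19, edgeR adjusted p = 0.857). At 6 h 25.4% was left in Mettl3 cKO and 21.6% in Control. A line through 0, 2 and 6 h gave half-lives of 3.23 h in Mettl3 cKO and 2.83 h in Control. In Control, the same fit gave 2.25 h for Mcl1 and 2.51 h for Bcl2l1.

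Bid (chromosome 6, 120891930 to 120916853, minus strand), which caspase-8 cleaves, was higher in Mettl3 cKO throughout. It had 65.7 and 66.4 CPM at 0 h, 54.6 and 58.4 at 2 h and 53 and 51.8 at 6 h in Mettl3 cKO, against 53.1 and 49.9, 38.3 and 41.5, and 22.1 and 19.9 CPM in Control. The share left at 2 h was 85.5% in Mettl3 cKO and 77.4% in Control, and the slopes over 0 to 2 h differed by 0.07 log2 per hour (95% interval -0.03 to 0.18, edgeR adjusted p = 0.434). Over 12 libraries the difference was 0.17 (SE 0.02, edgeR adjusted p = 5.38e-05), a call that appeared only with the 6 h libraries. Bcl2l13, itself a relative of the family, overlaps 17.7% of the Bid exons on the opposite strand.

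Neither Bad nor Pmaip1 differed detectably in slope over 0 to 2 h. Bad (chromosome 19, 6941861 to 6951899, plus strand), which binds Bcl-xL unless phosphorylated, had 11.4 and 14.9 CPM at 0 h, 15.4 and 17.8 at 2 h and 16 and 17.6 at 6 h in Mettl3 cKO, against 17.6 and 15, 20.4 and 17.5, and 17.8 and 14.5 CPM in Control. Mettl3 cKO was lower in both libraries at 0 h and overlapped Control at 2 h and 6 h, and the slopes over 0 to 2 h differed by 0.06 log2 per hour (95% interval -0.13 to 0.25, edgeR adjusted p = 0.762). Gpr137 overlaps 20.5% of its exons on the opposite strand. Pmaip1 (chromosome 18, 66458533 to 66465565, plus strand), which encodes Noxa, a selective antagonist of Mcl1, had 7.84 and 7.41 CPM at 0 h, 6.1 and 6.37 at 2 h and 4.17 and 5.26 at 6 h in Mettl3 cKO. In Control, Pmaip1 had 5.9 and 4.71, then 4.1 and 4.26, then 1.54 and 1.66 CPM, with Mettl3 cKO higher in both libraries at each time. Its slopes differed by 0.03 log2 per hour over 0 to 2 h (95% interval -0.22 to 0.27, edgeR adjusted p = 0.935) and by 0.18 over 12 libraries (edgeR adjusted p = 0.0111). The 12-library value was 0.16 with Control 6 h replicate 1 left out (edgeR adjusted p = 0.0516) and 0.15 with Mettl3 cKO 6 h replicate 2 left out (edgeR adjusted p = 0.0620), and DESeq2's Wald test gave 0.13 (adjusted p = 0.071).

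The comparison of slopes asks whether the mRNAs fell more slowly in Mettl3 cKO than in Control. Over 0 to 2 h, 2 of the 10 members, Mcl1 and Bcl2l1, fell more slowly in Mettl3 cKO, where 13.7% of all genes tested were called slower. None was called faster by edgeR or by DESeq2's Wald test (1, Bak1, had an unadjusted p under 0.05), where 1.65% of genes were. With TMM, under which 1489 genes were slower and 995 faster, the same 2 members were slower and Bak1 faster. Both slower members are anti-apoptotic, 2 of the 3 in that class, and neither an effector nor a BH3-only member was called, but whether the classes differ was not tested. Over all 12 libraries 4 members (Mcl1, Bcl2l1, Bid, Pmaip1) were slower and 0 faster (0 also at an unadjusted p under 0.05 and by DESeq2), against 24.3% and 2.57% of genes. The median difference over the members was 0.05 log2 per hour for 0 to 2 h and 0.11 for 0 to 6 h, beside 0.03 and 0.04 over all genes tested.

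**Figure D2:**
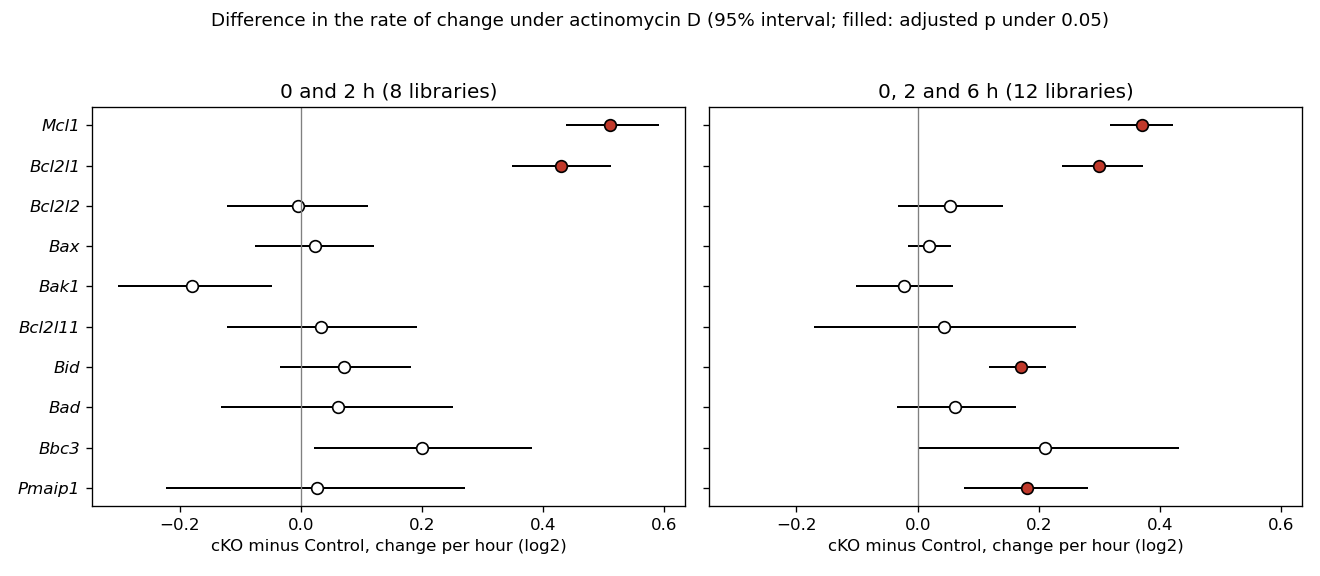
Difference in the change per hour of actinomycin D, Mettl3 cKO minus Control (x axis, log2 per hour), for the 10 members (y axis), from the 8 libraries at 0 and 2 h (left) and from all 12 libraries (right); bars are 95% intervals and filled points have an adjusted p under 0.05. Mcl1 and Bcl2l1 stand to the right of the other members in both panels, and Bid and Pmaip1 are filled only with the 6 h libraries.

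Compared at each time with TMM library sizes, the members showed a mixed picture before the drug. At 0 h, 5 were higher in Mettl3 cKO and 2 lower, where 29.6% of genes were called higher and 25.5% lower, and the same 7 had CPM that did not overlap between the genotypes (43.3% of genes higher and 32.2% lower by that count). The log2 difference was 0.73 for Bcl2l11 (SE 0.091, edgeR adjusted p = 2.25e-07), 0.49 for Pmaip1 (0.0179), 0.32 for Bid (0.000495), 0.28 for Bax (0.000902) and 0.17 for Mcl1 (0.0159). It was -0.62 for Bcl2l1 (SE 0.057, edgeR adjusted p = 1.05e-09) and -0.35 for Bad (edgeR adjusted p = 0.0263), while Bcl2l2, Bak1 and Bbc3 gave no call. By class, 1 of the 2 effectors was higher, 3 of the 5 BH3-only genes were higher and 1 was lower, and of the 3 inhibitors 1 was higher and 1 lower. The calls of Mcl1, Bad and Pmaip1 were lost without single libraries: Mcl1 had 0.09 (edgeR adjusted p = 0.271) when replicate 2 of Mettl3 cKO was left out and 0.14 (0.128) when replicate 1 of Control was. Bad had -0.19 (edgeR adjusted p = 0.322) when replicate 1 of Mettl3 cKO was left out and -0.24 when replicate 1 of Control was, and Pmaip1 had 0.43 (0.0984) when replicate 1 of Mettl3 cKO was left out and 0.34 (0.182) when replicate 2 of Control was. DESeq2's Wald test also lost Mcl1 (adjusted p = 0.0736) and Pmaip1 (0.143), and total counts lost Bad (edgeR adjusted p = 0.0623).

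At 2 h of actinomycin D, 6 members were higher in Mettl3 cKO and 2 lower, beside 32.3% and 28.6% of genes. By CPM alone, 8 were higher in both Mettl3 cKO libraries and 1 lower, beside 49.3% and 31.0% of genes. Mcl1 was higher by 1.13 (SE 0.061, edgeR adjusted p = 2.98e-14), the largest difference of any member, followed by Bcl2l11 at 0.72, Pmaip1 at 0.46, Bid at 0.39, Bax at 0.25 and Bcl2l1 at 0.16 (edgeR adjusted p = 0.0190). Bak1 had -0.42 (edgeR adjusted p = 0.000556) and Bad -0.31 (edgeR adjusted p = 0.0394). The Bcl2l1 call was lost without any of 3 libraries (0.12 to 0.18, edgeR adjusted p from 0.0521 to 0.204) and the Pmaip1 call without any of the 4 (0.42 to 0.49, edgeR adjusted p from 0.0704 to 0.137). The Bad call was lost without replicate 1 of either genotype (-0.21 and -0.20), and with total counts it was -0.19 (edgeR adjusted p = 0.23).

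At 6 h, 7 members were higher in Mettl3 cKO and 1 lower, beside 35.4% and 33.1% of genes, in a comparison that rests on the 2 Control libraries with Xist reads. By CPM alone 8 were higher and 0 lower, beside 54.8% and 25.9% of genes. Total counts gave 6723 genes higher and 2873 lower where TMM gave 5135 and 4797. Mcl1 differed by 2.21 (SE 0.065, edgeR adjusted p = 6.80e-20), Pmaip1 by 1.27, Bid by 1.03, Bcl2l1 by 0.97, Bbc3 by 0.88, Bcl2l11 by 0.72 and Bax by 0.15 (edgeR adjusted p = 0.0439). Bak1 had -0.44 (edgeR adjusted p = 0.000650) with TMM and -0.15 (edgeR adjusted p = 0.213) with total counts. Bbc3 lost its call without Control 6 h replicate 1 (0.48, edgeR adjusted p = 0.156) and Bax without 3 of the 4 libraries (0.09 to 0.16, edgeR adjusted p up to 0.309).

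**Figure D3:**
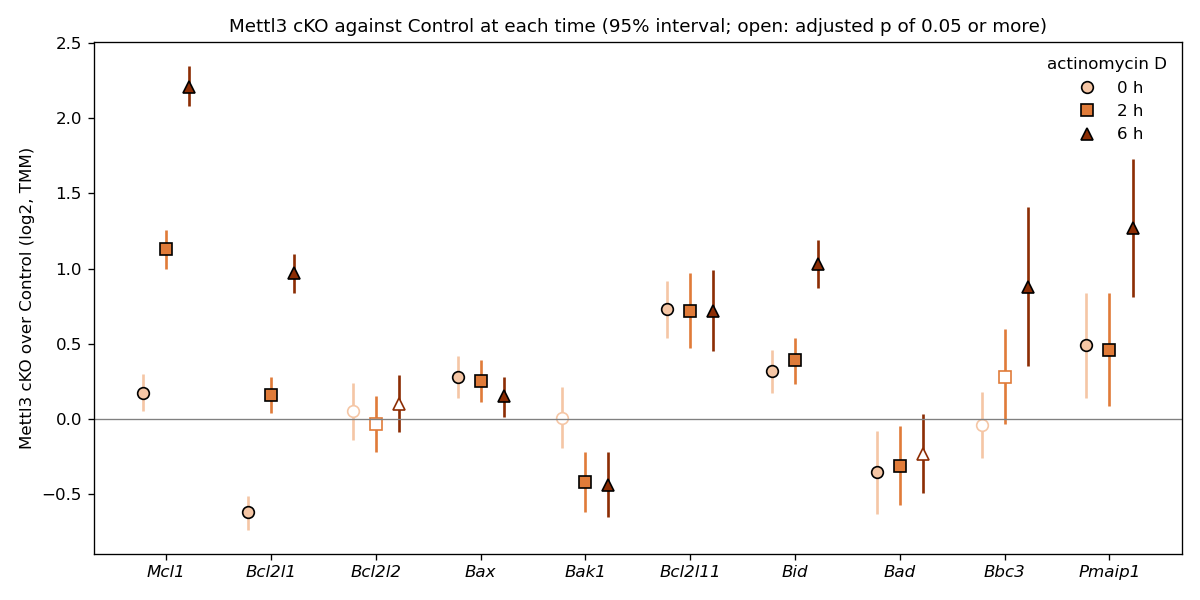
Log2 difference of Mettl3 cKO over Control with TMM library sizes (y axis) for the 10 members (x axis) at 0, 2 and 6 h of actinomycin D, as circles, squares and triangles from left to right; bars are 95% intervals and open symbols have an adjusted p of 0.05 or more. The difference was larger at each later time for Mcl1 (0.17, 1.13 and 2.21), changed sign between 0 and 2 h for Bcl2l1 (-0.62, 0.16 and 0.97), and was level for Bcl2l11 (0.73, 0.72 and 0.72).

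Within a genotype, changes under the drug were taken as shares of the library total, so they are relative to the RNA that remained. Between 0 and 2 h in Mettl3 cKO, 5 members fell, where 29.2% of genes did, and 1 rose, making 6 called where 41.2% of genes were. The log2 change was -1.93 for Bbc3, -1.66 for Bcl2l11, -0.30 for Bcl2l1, -0.24 for Bak1 (edgeR adjusted p = 0.0443) and -0.23 for Bid (edgeR adjusted p = 0.0144). Mcl1 had -0.09 (SE 0.064, edgeR adjusted p = 0.306). In Control over the same time, 5 members fell, where 36.3% of genes did, and 1 rose, making 6 called where 49.2% of genes were. There the change was -2.33 for Bbc3, -1.73 for Bcl2l11, -1.17 for Bcl2l1, -1.11 for Mcl1 (edgeR adjusted p = 1.76e-12) and -0.37 for Bid. Mcl1 was thus called in Control alone and Bak1 in Mettl3 cKO alone, and of these the difference itself passed the test for Mcl1. Bcl2l2 rose in both, by 0.29 in Mettl3 cKO and 0.30 in Control, but with library sizes set by the ribosomal protein genes, which shifted the median of all genes to -0.38 in Mettl3 cKO and -0.39 in Control, it was -0.0054 in Mettl3 cKO and 0.06 in Control, with no call. With 1 library left out, Bcl2l2 lost its call in 3 of 4 cases in each genotype, with values from 0.14 to 0.46 in Mettl3 cKO and from 0.27 to 0.33 in Control. With the same scaling Mcl1 in Mettl3 cKO had -0.38 (edgeR adjusted p = 0.000119), the value of the median gene. With total counts 1743 genes rose and 4233 fell in Mettl3 cKO and 1865 and 5263 in Control, and with TMM 3089 and 3425 in Mettl3 cKO and 3821 and 4089 in Control. In Mettl3 cKO the calls of Bak1 and Bid were lost with TMM (-0.14 and -0.13). That of Bak1 was also lost in 3 of 4 cases with 1 library left out (-0.35 to -0.11 over the 4), and that of Bid in 2 (-0.27 to -0.18 over the 4). Bcl2l1 in Mettl3 cKO kept its call, with -0.17 under DESeq2 size factors and -0.60 under the ribosomal scaling, and in Control the call of Bid was lost with DESeq2's Wald test (-0.20, adjusted p = 0.0873).

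Between 2 and 6 h in Mettl3 cKO, 5 members fell, where 33.0% of genes did, and they were all that was called, where 41.2% of genes were called in either direction. Bbc3 had a log2 change of -1.65 (SE 0.18, edgeR adjusted p = 1.20e-07), Bak1 of -0.61 (edgeR adjusted p = 3.05e-05), Mcl1 of -0.34, Bcl2l11 of -0.31 (edgeR adjusted p = 0.0297) and Bcl2l1 of -0.30 (edgeR adjusted p = 0.000357). With 4 libraries in this contrast, Bcl2l11 lost its call without any of them (edgeR adjusted p from 0.0559 to 0.162), and with TMM both Bcl2l11 (-0.15) and Bcl2l1 (-0.14, edgeR adjusted p = 0.0652) did. At 6 h Bcl2l11 had 80.5% of its 2 h mean in Mettl3 cKO and 71.6% in Control, so most of its fall took place in the first 2 h.

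Ratios between members within a library do not depend on library size. Mcl1 had 3.45 and 3.94 reads per Bcl2l1 read in Mettl3 cKO at 0 h against 2 and 2.24 in Control, 4.41 and 4.16 against 2.13 and 2.26 at 2 h, and 3.93 and 4.4 against 1.85 and 1.68 at 6 h. The ratio was higher in every Mettl3 cKO library than in any Control library, before the drug as well as after it, and no test was made on 2 libraries a group. Of the reads per kb over the 10 members, Mcl1 took 50.7% and 53.1% in Mettl3 cKO against 46.8% and 49.3% in Control at 0 h, 54.9% and 53% against 36.4% and 36.6% at 2 h, and 49.6% and 50.5% against 21.5% and 20.1% at 6 h. The effectors Bax and Bak1 took 20.2% and 18.7% in Mettl3 cKO against 17.8% and 17.6% in Control at 0 h, 20.6% and 21.9% against 30.1% and 30.2% at 2 h, and 24.5% and 24.7% against 44.5% and 47.8% at 6 h. The BH3-only members took 14.4% and 13.8% in Mettl3 cKO against 14% and 12.6% in Control at 0 h and 9.73% and 10.2% against 12.7% and 12.8% at 2 h. The anti-apoptotic share thus stayed between 65.4% and 69.7% in all 6 Mettl3 cKO libraries, and in Control it was 68.2% and 69.8% at 0 h, 57.2% and 57% at 2 h and 42.6% and 39.5% at 6 h. These are shares of mRNA, and protein was not measured in these libraries. Like the order per kb, they depend on the length used, here all annotated exons of a gene. Shares with the length of the principal transcript were not computed.

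**Figure D4:**
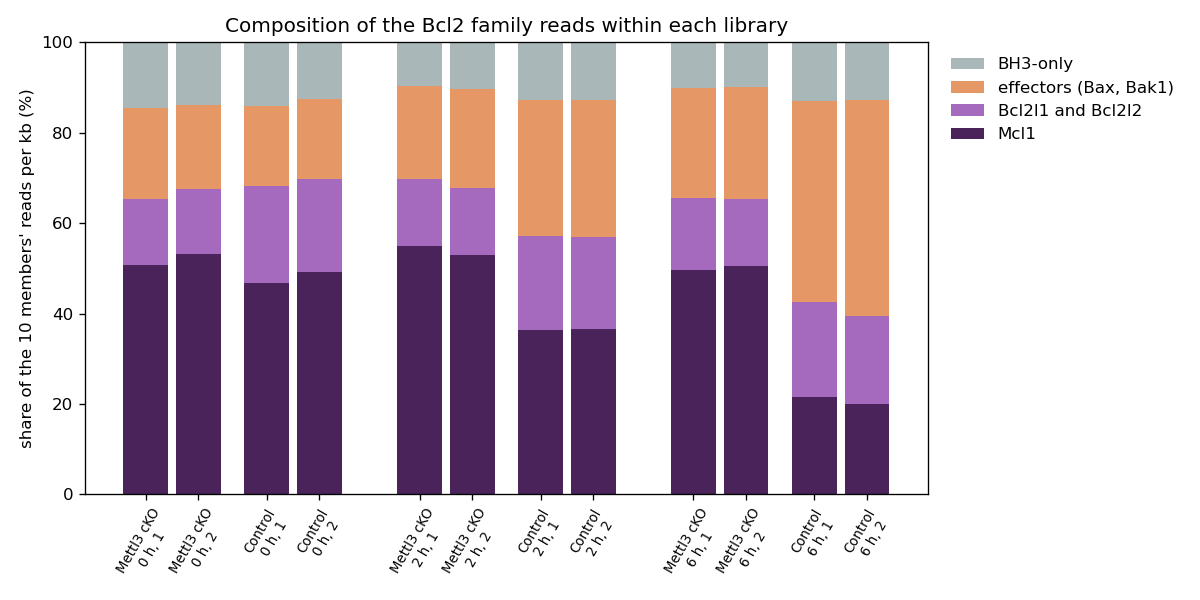
Share of the reads per kb of the 10 members (y axis, percent) taken by Mcl1, by Bcl2l1 and Bcl2l2, by the effectors Bax and Bak1 and by the 5 BH3-only genes in each of the 12 libraries (x axis, by time, with Mettl3 cKO left of Control). At 6 h the Mcl1 share is 49.6% and 50.5% in Mettl3 cKO and 21.5% and 20.1% in Control.

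Other genes of the pathway were taken from lists written from general knowledge. Over 0 to 2 h, 13.7% of all genes tested were called slower in Mettl3 cKO by edgeR and 1.65% faster. Of 14 further Bcl2 family genes that passed the filter, 1 fell more slowly in Mettl3 cKO over 0 to 2 h, namely Bmf, a BH3-only gene at a mean of 1.82 CPM (0.95 log2 per hour, SE 0.23, edgeR adjusted p = 0.00447), named here after its value was seen. Of 13 genes of the apoptosome and the caspases, 0 were called by edgeR or by DESeq2's Wald test in either direction (2 were slower at an unadjusted p under 0.05). Of 8 inhibitors of caspases, 4 were slower by edgeR and 1 by DESeq2's Wald test: Birc2 by 0.44 log2 per hour (edgeR adjusted p = 5.32e-05), Birc3 by 0.23, Xiap, which blocks caspase-9 and the executioner caspases, by 0.16, and Cflar, the inhibitor of caspase-8, by 0.14. The median differences of these lists were -0.0063 for the family genes, 0.0098 for the apoptosome and caspases and 0.15 for the inhibitors, beside 0.03 over all genes tested.

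Upstream of the family, 8 of 18 transcription regulators fell more slowly in Mettl3 cKO and 1 faster (7 and 3 by DESeq2's Wald test), where 13.7% of all genes were slower and 1.65% faster. The list had a median difference of 0.094 log2 per hour, beside 0.03 over all genes. Foxo1 differed by 0.81 log2 per hour (SE 0.066, edgeR adjusted p = 2.01e-09), Foxo3 by 0.76, Cebpb by 0.72 and Myc by 0.65, the Foxo factors being known to induce Bcl2l11 and Bbc3. The 1 faster gene was Trp53, which encodes p53, at -0.23 log2 per hour (edgeR adjusted p = 0.000290). At 0 h, Foxo1 was higher in Mettl3 cKO by 1 on the log2 scale and Foxo3 by 0.48, while Trp53 was lower by -0.35 (edgeR adjusted p = 0.000329). Among 13 regulators of Mcl1 protein turnover 3 were slower and 0 faster, with a list median of -0.0085 log2 per hour. Fbxw7, a ubiquitin ligase subunit for Mcl1, was slower by 0.33 and Gsk3b, a kinase that marks Mcl1 for degradation, by 0.2. Dusp6, a phosphatase of ERK, was slower by 0.42. In level at 0 h, 2 of the 13 were higher in Mettl3 cKO and 7 lower, where 29.6% and 25.5% of all genes were.

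In the death receptor arm, which feeds into Bid, 1 of 12 genes tested was slower over 0 to 2 h, where 13.7% of all genes were. It was the adaptor kinase Ripk1, at 0.23 log2 per hour (edgeR adjusted p = 0.00124). In level, 10 of the 12 were higher in Mettl3 cKO at 0 h by edgeR and 9 by DESeq2's Wald test, and 0 were lower by either (1 lower in edgeR at an unadjusted p under 0.05). By both tools 9 were higher and 1 lower at 2 h and again at 6 h, where 29.6%, 32.3% and 35.4% of all genes were higher in edgeR at 0, 2 and 6 h. The list had median log2 differences of 0.67, 0.87 and 1.56 beside 0.03, 0.03 and 0.03 over all genes. Ripk1 itself was higher by 0.76 at 0 h (edgeR adjusted p = 1.61e-09). The Kupffer cell or macrophage markers were also higher in Mettl3 cKO. Their median log2 difference was 1.09 at 0 h, 0.91 at 2 h and 2.26 at 6 h. Their part in the differences of this list was not tested.

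Over the 12 libraries, genes whose log2 CPM followed Mcl1 most closely among the 8799 genes that averaged 10 CPM or more were Heca (Pearson r = 0.997), Fem1b, Zbtb33 and Cxxc5 (0.996 each). For Bbc3 they were Npat (0.996), Asap1 (0.995), Kdm4a and Phf13 (0.994 each) and Ccdc93 (0.993). These correlations are descriptive, since the 12 points share 6 groups, their depth and the common fall under the drug.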

How the data were processed

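Poly(A) RNA of 12 hepatocyte libraries was sequenced as read pairs, without strand information. The authors used STAR 2.5.3a with mm10 and unique alignments only, and counted exon features of Gencode genes (release not given in the sources used here) with featureCounts 2.0.1. The values used here are whole-number counts per gene as deposited, not normalized, with 16952084 to 20914516 reads per library. A total of 0 rows named no gene and 0 columns were unmatched.

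Genes were filtered with filterByExpr (minimum count 10, minimum total 15), which kept 14277 genes for the 8 libraries at 0 and 2 h and 14488 for all 12. The quasi-likelihood test of edgeR 4.0.16 in R 4.3.3, with Benjamini-Hochberg adjustment over all genes tested and a threshold of 0.05, gave the genotype by hour term (total counts), Mettl3 cKO against Control at each time (TMM) and changes within a genotype (total counts). Intervals are at 95%. Apparent half-lives use total counts, and their intervals do not cover the choice of scaling. CPM are reads per 1000000 reads of the library total, and per kb values use the merged exon length of all annotated transcripts of a gene. For Mcl1 this equals its principal transcript (3418 bases). It is longer than that transcript for Bax (1576 against 867 bases) and Bcl2l1 (4586 against 2568 bases). The fits were tested on simulated data.

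The 10 members, the gene lists and the tests were chosen with earlier results of these data known. Other genes named are up to 4 per list with the largest difference among those called for decay over 0 to 2 h at a mean of 5 CPM or more, the 5 genes most like Mcl1 or Bbc3 by Pearson correlation of log2 CPM (prior count 0.5), and those said to be chosen later. A gene that this rule names is not reported here. Alternatives were TMM, total counts, DESeq2 1.42.0 size factors, scaling to 82 ribosomal protein genes, no filter, DESeq2's Wald test, the replicate number as a block, only the 4 libraries of a contrast, and each library left out in turn, where the lone library of a group was assumed to vary like the others. No 2 replicates were duplicates (chi-square per gene 2.14 to 9.16).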

Additional observations from a re-analysis of the deposited data

Results flagged for a closer look

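The change per hour of actinomycin D between 0 and 2 h differed between the genotypes for 2 members by a test of the difference itself. For Mcl1 it was 0.51 log2 per hour, Mettl3 cKO minus Control (edgeR adjusted p = 3.18e-10), and for Bcl2l1 it was 0.43 (edgeR adjusted p = 1.22e-08), with both Mettl3 cKO libraries above both Control libraries at 2 h for each gene. Groups of 2 libraries were too small to look for single libraries far from the rest.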

How the results depend on the processing

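Of 990 values of members under an alternative, 822 kept their direction and side of the threshold, 70 fell below it, 42 passed it and 56 changed sign. None of the sign changes touched a member that passed the threshold at first, except Bcl2l2 between 0 and 2 h in Mettl3 cKO. The slower fall of Mcl1 (0.46 to 0.56 log2 per hour over 0 to 2 h) and of Bcl2l1 (0.37 to 0.46) passed under all settings run. The cause of the other changes was not tested.

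Scaling moved the level of all genes, and with it most other values. Total counts shifted the median gene at 6 h to 0.32, from 0.03 with TMM. They gave 1 member called lower at 0 h, 1 at 2 h and 0 at 6 h, with Bcl2l2 at 0.085 at 2 h and Bad at 0.06 at 6 h, Mettl3 cKO against Control. Scaling to ribosomal protein genes gave 1, 1 and 0 called lower at these times, with Bbc3 at 0.031 at 0 h, Bcl2l2 at 0.047 at 2 h and Bad at 0.046 at 6 h. The same scaling gave 0 members called higher between 0 and 2 h in both genotypes, 8 called lower in Mettl3 cKO over 0 to 2 h and again 8 over 2 to 6 h. Over 0 to 2 h it gave -0.0054 for Bcl2l2 and -0.23 for Bax in Mettl3 cKO, and -0.21 for Bax, -0.12 for Bak1 and -0.015 for Bad in Control. Over 2 to 6 h in Mettl3 cKO it gave -0.23 for Bcl2l2, -0.11 for Bax and -0.21 for Bad, and the differences in slope over 0 to 2 h were -0.010 for Bax and -0.010 for Pmaip1.

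With TMM, DESeq2 size factors and DESeq2's Wald test alike, 4 members were called higher in Control over 0 to 2 h, 3 higher and 3 lower in Mettl3 cKO over 0 to 2 h, and 1 higher and 3 lower over 2 to 6 h. In that order of settings, Mcl1 over 0 to 2 h in Mettl3 cKO was 0.0094, 0.043 and 0.041, and Bid over 2 to 6 h was 0.054, 0.054 and 0.053. The slope difference of Bax was -0.035, -0.011 and -0.0088 over 0 to 2 h and -0.022, -0.028 and -0.026 over 0 to 6 h, and that of Pmaip1 over 0 to 2 h was -0.032, -0.0086 and -0.0056. For Bcl2l11 it was -0.024 with TMM and -0.0012 with DESeq2 size factors over 0 to 2 h, and -0.0025 with these factors and -0.0039 with the Wald test over 0 to 6 h. TMM, DESeq2 size factors and no filter each gave 1 member called faster over 0 to 2 h. Bak1 at 0 h was -0.026 with DESeq2 size factors, -0.023 with the Wald test and -0.021 with only the 4 libraries of the contrast. DESeq2 size factors gave 2 members lower at 6 h, and the Wald test 3 higher at 0 h and 1 lower at 2 h. No filter and only the 4 libraries each gave 2 members higher in Mettl3 cKO over 0 to 2 h.

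With a single library left out, 2 to 3 members were called slower and 0 to 1 faster over 0 to 2 h, and 3 to 5 slower over 0 to 6 h. At 0 h 4 were higher and 1 to 2 lower, at 2 h 4 to 5 and 1 to 2, and at 6 h 6 to 7 and 1 to 2. Between 0 and 2 h, 0 to 2 were higher and 3 to 4 lower in Mettl3 cKO and 0 to 1 higher and 5 lower in Control, and 4 to 5 were lower over 2 to 6 h. Sign changes came only from small values. They ranged over 0 to 2 h from -0.082 to 0.082 for Bcl2l2, -0.0016 to 0.048 for Bax, -0.012 to 0.083 for Bcl2l11, -0.028 to 0.16 for Bad and -0.059 to 0.10 for Pmaip1 in slope difference. At 0 h they ranged from -0.11 to 0.20 for Bcl2l2, -0.13 to 0.14 for Bak1 and -0.15 to 0.082 for Bbc3, and at 6 h from -0.08 to 0.25 for Bcl2l2. Within a genotype they ranged from -0.0047 to 0.049 for Bax in Control, and in Mettl3 cKO from -0.17 to 0.0078 for Mcl1 over 0 to 2 h and, over 2 to 6 h, from -0.013 to 0.019 for Bcl2l2 and -0.083 to 0.13 for Bad.

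The replicate numbers share no stated source. At the same time point, same-numbered libraries of the genotypes did not deviate together (correlations -0.0717 at 0 h, 0.103 at 2 h and -0.164 at 6 h). Between groups of different times, the correlations ran from -0.357 (Control 6 h with Mettl3 cKO 0 h) to 0.196 (Mettl3 cKO 6 h with 0 h). With the replicate number as a block, 1864 genes were slower and 193 faster over 0 to 2 h, and Bax at 6 h (edgeR adjusted p = 0.0531) and Bak1 between 0 and 2 h in Mettl3 cKO (0.0596) lost their calls. A crossed replicate block at 6 h, chosen after seeing the data, gave 5144 genes higher and 4807 lower. Depth was lowest for Bbc3 in Control at 6 h, with 19 and 31 reads.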
